A study of Mus musculus with 27 samples.

Results

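The liver transcriptome of 15 suckling daughters was compared by the diet of the mother, using 6 daughters of dams on a Western-style diet (WSD) and 9 daughters of dams on a low-fat diet (LFD). The daughters were picked from the 27 arrays of the experiment by the sex and maternal diet labels alone, and the other 12 arrays came from sons. All pups were C57Bl/6J mice killed at 2 weeks of age, within the lactation period. The LFD supplied 10% of its energy as fat and held 18.0 mg cholesterol per kg, whereas the WSD supplied 45% of its energy as fat and held 196.5 mg cholesterol per kg. Dams ate either diet for 6 weeks before mating and on through pregnancy and lactation, and the sires received control diet. Litters were brought to a standard size, but some became smaller afterwards. A single array was hybridised per pup, with total RNA of whole liver, and values are log2 signals, so a higher value is a brighter probe set. The array names hold a further number, whose meaning is not stated: 37 (3 pups), 49 (4 pups) and 50 (2 pups) in the LFD daughters, and 39, 40 and 48 (2 pups each) in the WSD daughters. Every number belongs to 1 diet. If it marks the dam or litter, the 15 pups come from 6 families and p-values that treat pups as independent are too small. Sons carry the same numbers except 39. Fits below without a number therefore also left out its sons, who enter the shared estimate of spread.

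Whole liver was measured, and fewer cells of a type and less RNA per cell cannot be told apart in such samples. The tissue matched its label: 7 of 8 hepatocyte markers were measured, and Alb, Ttr, Apoa1, Apob, Cps1, Trf and Cyp2e1 had log2 signals from 12.30 to 13.27 in every daughter, with too little spread between pups to enter the test.

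A liver cell can make cholesterol from acetyl-CoA through the mevalonate pathway, which leads to farnesyl diphosphate, and then through squalene and a chain of sterol intermediates. Transcription of these enzymes is driven by SREBP2 (Srebf2), a membrane-bound factor that is released when sterol in the endoplasmic reticulum is low, and that acts with NF-Y bound to CCAAT boxes nearby. Suckling pups live on milk, which is rich in fat and brings cholesterol, and their liver burns fatty acids and makes ketone bodies.

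Enzymes of sterol synthesis made up 5 of the 10 largest rises (Sqle, Idi1, Cyp51, Msmo1 and Fdps), while the 10 largest falls held 1 gene of bile acid handling, Baat, and none of sterol synthesis. Of 10810 genes tested with limma, 389 were higher in WSD daughters at p <= 0.01 (3.6% of those tested) and 172 were lower (1.59%), 561 in all (5.19%). After Benjamini-Hochberg adjustment 33 genes remained at adjusted p < 0.05 (0.305%), 20 higher and 13 lower. In 47 genes (0.435%) the 6 WSD values and the 9 LFD values did not overlap, with 37 genes higher on WSD and 10 lower. Below, "rose" and "fell" are used for genes at p <= 0.01 before adjustment, and the adjusted p printed beside them is that of the limma fit over all tested genes, so that most genes said to have risen or fallen are not among the 33. Counts within a gene list are to be read beside the 5.19% called over all tested genes. Lists and members were chosen with earlier results of these data known. A share above 5.19% may thus have been favoured in advance and is a description only.

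Differences were small. Their median size over the 561 genes was 0.20 on the log2 scale and the smallest was 0.10, beside a median SD between pups of 0.13 in LFD and 0.12 in WSD daughters. In 152 genes the difference reached 0.25 and in 22 it reached 0.5. The surplus of higher genes depended on the scaling of the arrays: 69.3% of the calls were higher as deposited, 37.7% (190 higher, 314 lower) after centring of the arrays on their medians and 49.5% (264 higher, 269 lower) after quantile normalization was repeated. The median difference over all tested genes was 0.01 as deposited and -0.01 after centring.

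Promoters of 5 sterol synthesis genes that rose are shown for the boxes they hold. Each is the 250 bases before the start of the gene in RefSeq on build GRCm38.p6, written 5′ to 3′ on the strand of the gene: Hmgcs1 at chr13:119690101-119690350 (plus strand), Idi1 at chr13:8885356-8885605 (plus), Cyp51 at chr5:4104698-4104947 (minus), Msmo1 at chr8:64733579-64733828 (minus) and Nsdhl at chrX:72918271-72918520 (plus). Capitals mark CCAAT (read as ATTGG on the opposite strand) and, in Hmgcs1, the sterol element TCACCCCAC.
Hmgcs1: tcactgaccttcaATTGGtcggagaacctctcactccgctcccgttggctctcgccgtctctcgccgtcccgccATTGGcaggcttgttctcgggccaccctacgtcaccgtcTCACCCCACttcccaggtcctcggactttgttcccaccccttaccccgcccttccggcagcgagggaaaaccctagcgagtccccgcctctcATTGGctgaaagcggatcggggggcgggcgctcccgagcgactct
Idi1: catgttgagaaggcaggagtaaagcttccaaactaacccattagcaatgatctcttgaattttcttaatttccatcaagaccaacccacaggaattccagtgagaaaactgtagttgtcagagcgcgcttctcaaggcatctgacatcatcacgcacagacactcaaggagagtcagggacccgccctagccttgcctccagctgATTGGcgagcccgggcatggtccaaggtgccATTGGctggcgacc
Cyp51: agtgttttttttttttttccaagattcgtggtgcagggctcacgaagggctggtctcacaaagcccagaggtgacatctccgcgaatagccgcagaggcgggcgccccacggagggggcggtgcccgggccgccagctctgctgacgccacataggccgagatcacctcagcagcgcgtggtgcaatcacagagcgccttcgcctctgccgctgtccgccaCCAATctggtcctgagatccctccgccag
Msmo1: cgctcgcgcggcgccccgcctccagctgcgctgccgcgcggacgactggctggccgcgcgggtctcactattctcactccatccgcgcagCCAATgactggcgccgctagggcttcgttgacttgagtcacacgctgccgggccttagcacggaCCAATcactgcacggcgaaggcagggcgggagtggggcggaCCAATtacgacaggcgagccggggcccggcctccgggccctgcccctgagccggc
Nsdhl: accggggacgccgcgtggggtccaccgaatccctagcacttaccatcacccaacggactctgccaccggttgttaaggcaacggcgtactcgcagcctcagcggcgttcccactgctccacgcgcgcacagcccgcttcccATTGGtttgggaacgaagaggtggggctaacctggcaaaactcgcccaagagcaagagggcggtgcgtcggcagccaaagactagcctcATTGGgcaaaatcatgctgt

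Both strands were searched for the NF-Y box CCAAT and for the sterol element TCACNCCAC, which share no base in these windows. Of the 18 sterol synthesis genes tested, 15 had a window in the table, and CCAAT was found in 15 of 15. It was found in 33.85% of the 32851 windows of all genes (37.49% of 27025 genes). TCACNCCAC was found in 1 of the 15, Hmgcs1, 137 bases before the start, and in 1.05% of all windows. CCAAT did not separate the members that rose (9 of 9 with a window) from those that did not pass the test (6 of 6). A match of letters is a description and no proof of binding, and absence of these letters says nothing about the factor.

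In the mevalonate pathway, 6 of 7 tested enzymes rose and none fell (85.71% called, beside 5.19% of all genes), with a median difference of 0.37 over the list and 0.01 over all genes. Hmgcs1, which makes hydroxymethylglutaryl-CoA, had a log2 signal of 8.66, 9.32 and 9.51 (lowest, median and highest) in LFD daughters and 9.46, 9.62 and 10.14 in WSD daughters. The lowest WSD values lay inside the upper LFD range. Hmgcs1 rose by 0.50 (SE 0.12, adjusted p = 0.0664).

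The kinases that follow, Mvk and Pmvk, rose by 0.26 (adjusted p = 0.172) and 0.21 (adjusted p = 0.173), and the decarboxylase Mvd by 0.37 (adjusted p = 0.122). Idi1 isomerises isopentenyl diphosphate and ranged over 6.50, 7.31 and 8.04 in LFD and 7.41, 8.01 and 9.08 in WSD daughters, a rise of 0.87 (SE 0.24, adjusted p = 0.1). Fdps, the farnesyl diphosphate synthase, rose by 0.70 (SE 0.19, adjusted p = 0.0914). Ggps1, which leads off toward geranylgeranyl diphosphate, differed by -0.02 (adjusted p = 0.921). With the array number as a random block 4 of the 7 passed, and Mvk and Pmvk did not. That fit used the same correlation within a number for every gene, which may be too low for genes whose pups group by number.

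From squalene on, 5 of 11 tested enzymes rose and none fell (median difference 0.34). Sqle, the squalene epoxidase and a rate-limiting step, had the largest difference of all called genes. Its log2 signal in the LFD daughters was 4.72 at the lowest, 5.52 at the median and 6.22 at the highest, and in the WSD daughters 5.84, 6.22 and 7.98. Each WSD pup lay above at least 8 of the 9 LFD pups, and the top LFD pup (number 50) lay above 3 of the WSD pups. The difference was 1.31 (SE 0.33, adjusted p = 0.0712).

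Lss, which closes the ring to lanosterol, rose by 0.48 (adjusted p = 0.0787). Cyp51 removes the 14-methyl group of lanosterol and rose by 0.81 (SE 0.22, adjusted p = 0.0984), from 6.21, 6.88 and 7.40 in LFD to 6.93, 7.39 and 8.60 in WSD daughters. The demethylating enzymes Msmo1 and Nsdhl rose by 0.76 (adjusted p = 0.152) and 0.62 (adjusted p = 0.119). The 6 members that did not pass were Fdft1, the squalene synthase (0.14, adjusted p = 0.358), Tm7sf2 (0.21, adjusted p = 0.606), Hsd17b7 (0.20, adjusted p = 0.486), Ebp (0.09, adjusted p = 0.689), Sc5d (0.13, adjusted p = 0.213) and Dhcr7, the last reductase (0.34, adjusted p = 0.213).

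**Figure D1:**
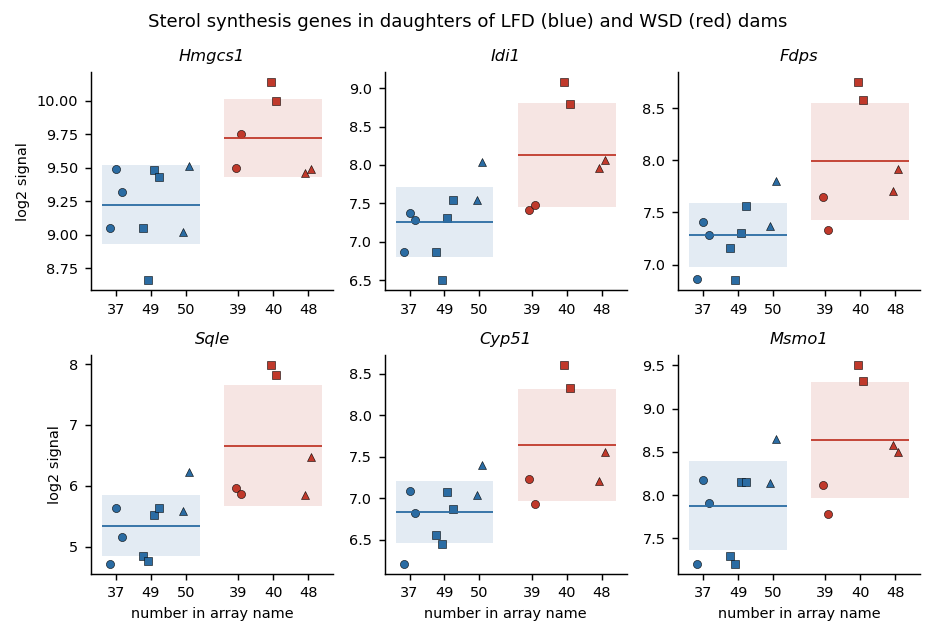
Log2 signal of 6 sterol synthesis genes (y axis) in each daughter by the number in the array name (x axis), LFD in blue and WSD in red; the line is the mean and the band 1 SD. Both pups of number 40 are the highest of all 15 daughters for Sqle (7.98 and 7.82), and the other 4 WSD pups lie nearer to the LFD daughters.

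The rise was carried unequally by the pups. Averaged over the 7 mevalonate genes and set against the LFD mean, the pups of number 40 stood 0.90 and 0.68 higher, those of number 39 0.15 and 0.12 higher and those of number 48 0.28 and 0.34 higher, while LFD pups ran from -0.36 to 0.36. Over the 11 later genes the same pairs stood at 0.98 and 0.91, at 0.17 and -0.02, and at 0.30 and 0.43, with LFD pups from -0.39 to 0.41. The number 40 pair alone lay outside the LFD range for the mevalonate genes. For the later genes, 1 pup of number 48 also lay just above it.

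Without number 40, 0 of 7 and 0 of 11 genes passed limma at p <= 0.01, and the medians fell to 0.17 and 0.14. Sqle then differed by 0.69 (95% interval 0.08 to 1.31, adjusted p = 0.412), Hmgcs1 by 0.33 (adjusted p = 0.386), Lss by 0.32 (adjusted p = 0.375), Cyp51 by 0.39 (adjusted p = 0.479) and Idi1 by 0.47 (adjusted p = 0.488). At p <= 0.05 Sqle, Hmgcs1 and Lss were the only ones of the 18 left. Leaving out number 49 kept 1 of 7 and 2 of 11, number 37 kept 3 and 3, and number 39 gave 6 and 8, number 48 gave 4 and 4 and number 50 gave 6 and 7. Over all tested genes the calls also fell, from 389 higher and 172 lower to 244 and 82 without number 40. Without number 49 they were 115 and 54. Number and diet cannot be told apart for the 2 pups of number 40.

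**Figure D2:**
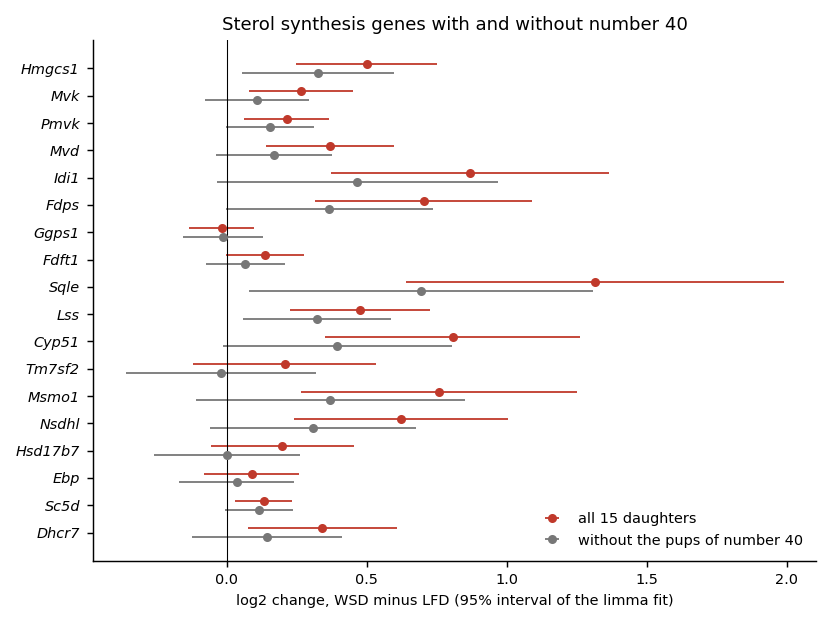
Difference between WSD and LFD daughters (x axis, log2) with its 95% interval for the 18 sterol synthesis genes tested (y axis), red with all 15 daughters and grey without number 40. The grey points lie closer to 0, and for Sqle the difference drops from 1.31 to 0.69.

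Among genes that govern sterol supply, 2 of 7 rose. Srebf2 itself was higher by 0.25 (adjusted p = 0.164), with LFD values of 8.09, 8.47 and 8.67 and WSD values of 8.40, 8.58 and 8.89. Lipa, the lysosomal acid lipase that frees cholesterol and fatty acids from esters taken up with lipoproteins, rose by 0.22 (SE 0.04, adjusted p = 0.0171). Its groups did not overlap, with 11.02 to 11.16 in LFD and 11.21 to 11.40 in WSD daughters. Lipa, unlike the synthesis enzymes, passed without each of the 6 numbers in turn. Abcg8, a subunit of the sterol pump into bile, fell by 0.24 (adjusted p = 0.177) and was the 1 of 6 efflux genes that passed p <= 0.01.

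Of the 561 called genes, 72 (49 higher, 23 lower) passed at p <= 0.01 without each number in turn. The first among them by p was Mustn1, a small nuclear protein named for muscle and skeletal development. Its LFD values were 8.15, 8.42 and 8.57 and its WSD values 7.70, 7.87 and 8.03, so every WSD pup lay below every LFD pup. Mustn1 fell by 0.49 (SE 0.07, adjusted p = 0.00219).

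Fabp2, the intestinal-type fatty acid binding protein, was 9.43, 9.63 and 9.70 in LFD and 9.91, 10.06 and 10.40 in WSD daughters. No values were shared between the groups, and no pair of pups stood apart within WSD. Fabp2 rose by 0.52 (SE 0.08, adjusted p = 0.00701). Krt20, a keratin of gut and other simple epithelia, rose by 0.91 (SE 0.15, adjusted p = 0.00704), from 5.59, 6.16 and 6.83 to 6.88, 7.12 and 7.39.

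C2, a complement protease made by hepatocytes, fell by 0.27 (SE 0.05, adjusted p = 0.0138). Its highest WSD value was 9.32 and its lowest LFD value 9.33. Steap2, a metalloreductase that handles iron and copper, fell by 0.27 (adjusted p = 0.0138), with 7.69 to 7.84 in WSD and 7.90 to 8.18 in LFD daughters. Tkt, the transketolase of the pentose phosphate pathway, rose by 0.27 (adjusted p = 0.0138), with 7.12 to 7.32 in LFD and 7.33 to 7.58 in WSD daughters, the groups being 0.01 apart. Olfml1, an extracellular protein, fell by 0.29 (adjusted p = 0.0138).

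Other genes without overlap were Snhg5, a host transcript of small nucleolar RNAs (0.31, adjusted p = 0.0138), Plekha8, which moves glycosphingolipid between membranes (0.28, adjusted p = 0.0142), Pgrmc2, a haem-binding membrane protein (0.25, adjusted p = 0.0171), and Car2, a carbonic anhydrase (0.30, adjusted p = 0.0265). Stap1 (0.42), Nudc (0.26), Phpt1 (0.19) and Vdac3 (0.19) were also higher in every WSD pup, as genes singled out after their values were seen. Each of these differences rests on 3 numbers per diet.

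**Figure D3:**
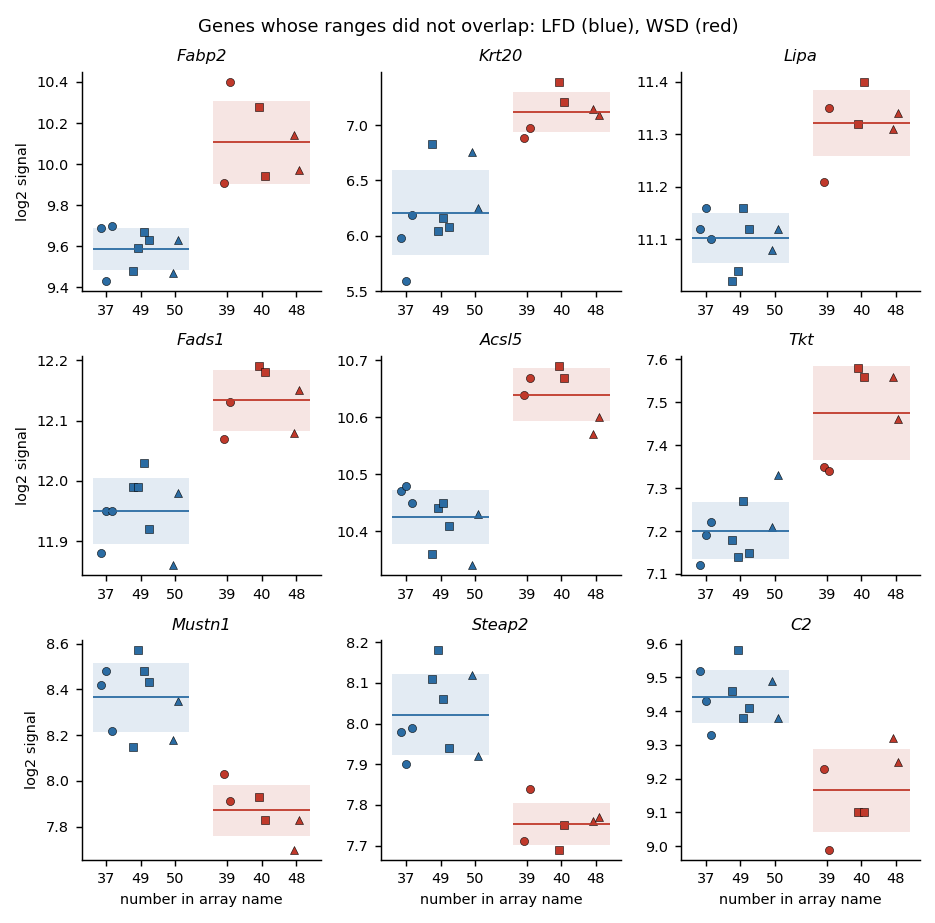
Log2 signal of 9 genes in each daughter (y axis) by the number in the array name (x axis), LFD in blue and WSD in red; the line is the mean and the band 1 SD. In none of the 9 panels do the diets overlap; Fabp2, Krt20, Lipa, Fads1, Acsl5 and Tkt are higher in WSD pups, and Mustn1, Steap2 and C2 are lower.

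Genes of fatty acid handling moved in both directions. Of 18 genes of synthesis, elongation and desaturation, 2 rose and 1 fell. Fads1, the delta-5 desaturase of polyunsaturated fatty acids, was 11.86, 11.95 and 12.03 in LFD and 12.07, 12.14 and 12.19 in WSD daughters, without overlap, and rose by 0.18 (adjusted p = 0.0662). Its neighbour Fads2, the delta-6 desaturase, rose by 0.13 (adjusted p = 0.155). Mlxipl, the glucose-responsive factor ChREBP, fell by 0.20 (SE 0.04, adjusted p = 0.0294) and passed without each number.

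Among 9 genes of fatty acid activation and binding, Fabp2 and Acsl5 rose. Acsl5, an acyl-CoA synthetase, lay between 10.34 and 10.48 in LFD and between 10.57 and 10.69 in WSD daughters (difference 0.21, adjusted p = 0.0712). Of 16 genes of fatty acid oxidation, ketogenesis and PPARA targets, 3 rose: Cpt2, the inner carnitine palmitoyltransferase (0.13, adjusted p = 0.0852), Acad9, an acyl-CoA dehydrogenase (0.22, adjusted p = 0.0662), and Decr1, the dienoyl-CoA reductase (0.16, adjusted p = 0.129). Ehhadh, the peroxisomal bifunctional enzyme, fell by 0.35 (adjusted p = 0.0796).

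Of 11 genes of the TCA cycle list, 3 rose: Idh2 (0.18, adjusted p = 0.0663), Sdhb (0.19, adjusted p = 0.159) and Aco1 (0.18), the last of which is the cytosolic aconitase that also controls iron-related messages. Of 15 genes of insulin signalling and sugar use, 3 rose: Tkt, the phosphatase Ptpn1, which acts on the insulin receptor (0.26, adjusted p = 0.0463), and Galk2 (0.15). Pnpla2, the triglyceride lipase ATGL, fell by 0.11 (adjusted p = 0.189). It was the 1 of 19 triglyceride and lipid droplet genes that passed (5.26%, near the 5.19% of all genes). Of 13 genes of phosphatidylcholine and sphingolipid synthesis, Pcyt1a (0.16) and Ugcg (0.23) rose, and neither passed after centring or with the number as a random block. Pnpla2 was not called in that blocked fit either.

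The 4 of 13 gut-type epithelial genes that rose were Krt20, Fabp2, Clec2h and Mgam, the maltase-glucoamylase of the gut brush border (0.18, adjusted p = 0.121). Clec2h, a C-type lectin, rose by 0.68 (SE 0.15, adjusted p = 0.031), from 7.38, 7.81 and 8.30 to 8.27, 8.38 and 9.19. The list median was 0.00. Of 9 markers listed for gut epithelium, Vil1, Cdx2, Cdh17, Muc2 and Alpi lay between 2.86 and 4.21 in every daughter and did not reach the test. The other 4 were tested. Fabp2 and Krt20 rose, while Lgals4, a galectin that read 7.19 to 8.00 over the daughters, differed by -0.03 (adjusted p = 0.949) and Cdx1, an intestinal homeobox factor that read 4.98 to 5.27, by 0.00 (adjusted p = 0.991). The 4 together averaged 0.23 to 0.50 above the LFD mean in WSD pups and -0.18 to 0.11 in LFD pups, an average that Krt20 and Fabp2 carried. The part of gut tissue in the result was not tested.

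Of 17 carboxylesterases and aldo-keto reductases, 4 rose and none fell. Ces1g, which hydrolyses lipid esters, rose by 0.75 (SE 0.22, adjusted p = 0.113), with 7.43, 9.005 and 9.71 in LFD and 9.17, 9.58 and 10.01 in WSD daughters, so that 4 of the WSD pups lay in the upper part of the LFD range and 2 lay above it. Ces1f rose by 0.56 (adjusted p = 0.0925), Ces1e by 0.40 (adjusted p = 0.0796) and Akr1c13 by 0.19 (adjusted p = 0.169). Without number 48 or without number 49, 1 of the 17 genes passed. Over all tested genes, 263 were higher and 164 lower without number 48, and 115 and 54 without number 49. Ces1 genes lie side by side and are close in sequence, so probes of one may take up signal of another. Among 28 conjugating enzymes the glucuronosyltransferases Ugt2b38 (0.31, adjusted p = 0.0294) and Ugt2b5 (0.19) rose (7.14% called, beside 5.19% of all genes). Aldh1a7, an aldehyde dehydrogenase, rose by 0.94 (SE 0.24, adjusted p = 0.074).

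Some cytochrome P450 genes stood apart in the pups of 1 number. Of 24 genes of the CYP2 and CYP3 families with CAR and PXR, 2 rose and 2 fell. Cyp2b10, the classical CAR target, read 8.995 and 8.12 in the pups of number 48, 6.69 to 7.23 in the other WSD pups and 6.63 to 7.76 in LFD daughters; the difference between diets was 0.54 (SE 0.29, adjusted p = 0.39). Cyp2f2, a periportal enzyme, read 10.81 and 10.63 in number 39 and 11.43 to 11.84 in every other daughter. It fell by 0.35 (adjusted p = 0.176), and without number 39 the difference was -0.05 (adjusted p = 0.842).

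Cyp2c29 fell by 0.28 (adjusted p = 0.168), with 10.72 to 11.09 in the pups of numbers 39 and 40 and 11.41 and 11.32 in those of number 48, inside the LFD range of 11.12 to 11.49. Baat, which conjugates bile acids to taurine, split the WSD pups in the same way. It read 7.62 and 7.43 in number 39, 7.19 and 7.83 in number 40 and 8.67 and 8.22 in number 48, beside 8.04 to 8.52 in LFD daughters, and fell by 0.45 (adjusted p = 0.164). Dsg1c, a desmosomal cadherin, fell by 0.85 (adjusted p = 0.177), and S100g, a calcium-binding protein, by 0.53 (adjusted p = 0.152). For Dsg1c too, the pups of number 48 (6.53 and 5.83) lay inside the LFD range and the other 4 WSD pups (4.56 to 4.97) below it. Abcg8 did likewise (10.47 and 10.38 against 9.97 to 10.09). Cyp2j5 and Cyp3a44 rose by 0.22 (adjusted p = 0.152) and 0.32 (adjusted p = 0.161). With the number as a random block Cyp2f2, Dsg1c, Abcg8 and Cyp3a44 were no longer called. The correlation within a number was estimated once over all tested genes, at 0.0887, and used for every gene. It may be too low for genes whose pups group by number, so a call kept in this fit is a weak check for them. With the arrays of a number averaged, limma gave 121 genes higher and 54 lower at p <= 0.01, and 0 at adjusted p < 0.05.

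Several genes outside the lists were among the 10 largest rises or falls. Snora73a, a small nucleolar RNA, rose by 0.71 (SE 0.25, adjusted p = 0.178), from 8.55, 8.83 and 9.93 in LFD to 9.42, 9.90 and 10.24 in WSD daughters. The LFD pups of number 37 averaged 9.78, within the WSD range, and those of numbers 49 and 50 averaged 8.996 and 8.69. Number 49 was not uniform: 1 pup read 9.83 and the others 8.61 to 8.82. Gm5617 fell by 0.60 (SE 0.17, adjusted p = 0.0984), from 9.82, 10.42 and 10.54 to 8.95, 9.69 and 10.22, and the groups overlapped.

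The other large falls were those of Susd4, a regulator of complement (-0.45, adjusted p = 0.162), Nrbp2, a pseudokinase (-0.45, adjusted p = 0.114), Rarres1, a retinoid-responsive gene (-0.40, adjusted p = 0.087), Myo15b, an unconventional myosin (-0.40, adjusted p = 0.122), and Rnd2 (-0.38, SE 0.08, adjusted p = 0.0294). For Rnd2 the WSD pups read 5.60 to 5.89, and 1 LFD pup lay inside that range at 5.78. Susd4 was not called with the number as a random block.

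**Figure D4:**
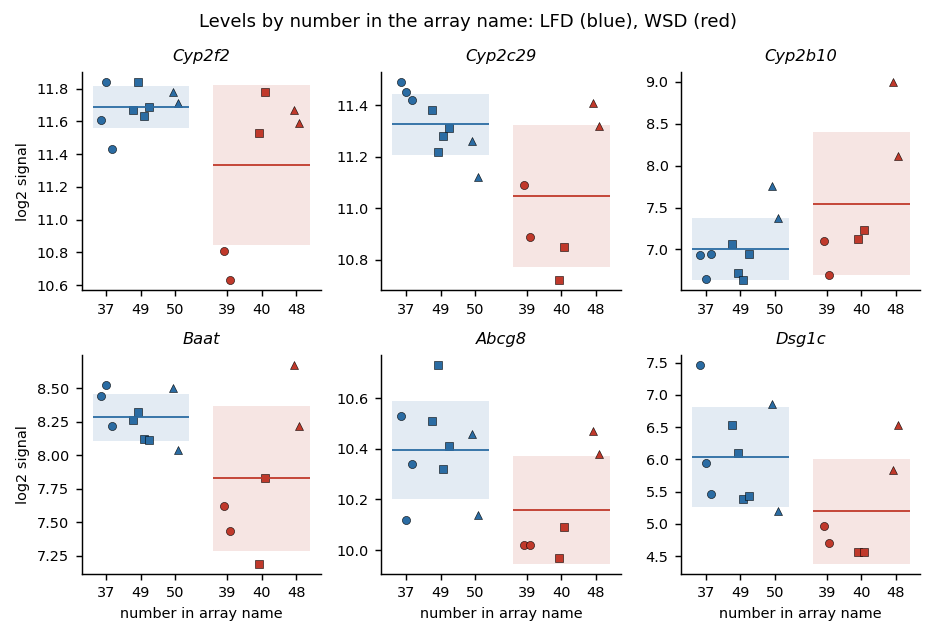
Log2 signal of 6 genes in each daughter (y axis) by the number in the array name (x axis), LFD in blue and WSD in red; the line is the mean and the band 1 SD. Among WSD pups number 39 is low for Cyp2f2 and number 48 is high for Cyp2b10. Numbers 39 and 40 are low for Cyp2c29, Baat, Abcg8 and Dsg1c. Pups of 1 number can also lie apart, as for Dsg1c in the LFD pups of number 37 (7.46, 5.94 and 5.46).

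Among genes of protein turnover, RNA handling and the cell cycle, a part of each list passed the test. In ubiquitin-like conjugation and deubiquitination 8 of 16 rose, and the median difference over the list was 0.14. They were the E1 enzymes Uba3 (0.18) and Uba6 (0.14), the modifiers Nedd8 (0.15) and Urm1 (0.17), the deubiquitinases Uchl5 (0.19), Usp4 (0.17) and Usp5 (0.13), and Cops5 (0.16), the catalytic subunit of the COP9 signalosome. In the proteasome 5 of 33 rose, led by the core subunit Psma3 (0.31), and the list median was 0.05.

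In all, 4 of 7 subunits of the RNA exosome, which trims and degrades RNA, rose by 0.16 to 0.21 (Exosc2, Exosc7, Exosc8 and Exosc9). Of 41 spliceosome and hnRNP genes 8 rose (list median 0.08), with Hnrnph3 first (0.40, SE 0.08, adjusted p = 0.0294). For Hnrnph3 the pups of number 37 averaged 8.49, close to the WSD lowest value of 8.60, while numbers 49 and 50 averaged 8.21 and 8.17. A pup of number 49 read 8.39, inside the 8.34 to 8.61 of number 37. Of 29 genes of ribosome biogenesis 5 rose, Brix1 most (0.33), and of 11 cytosolic tRNA synthetases 3 rose, Tars (0.29, adjusted p = 0.0294), Rars (0.19) and Qars (0.12). Both Cct6a and Cct7 of 6 tested chaperonin subunits (0.20 and 0.18) and 3 of 20 genes of endoplasmic reticulum chaperones and stress, Hspa5 (0.18), Hsp90b1 (0.16) and Derl2 (0.22), also rose.

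In DNA replication and repair 7 of 18 genes rose, among them the helicase subunit Mcm6 (0.25), the damage sensor Parp1 (0.16) and the checkpoint kinases Atm (0.16) and Atr (0.17). In mitosis and cell cycle 7 of 24 rose: Fbxo5, an inhibitor of the anaphase-promoting complex (0.30), Nek2 (0.27), the checkpoint kinase Bub1b (0.24), Kif20b (0.24), Smc2 (0.23), Lmnb1 (0.23) and Cdkn2c (0.27). Of 13 chromatin repressors 5 rose, the Polycomb subunits Ezh2 (0.17) and Suz12 (0.13), Hdac2 (0.18), Hdac3 (0.14) and Cbx1 (0.20).

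These counts depended on the scaling and on single numbers, and so did the calls over all 10810 tested genes. From 389 higher and 172 lower, these went to 190 and 314 after centring. They were 244 and 82 without number 40, and 115 and 54 without number 49. Without number 48 they were 263 and 164, without number 37 581 and 228, and without number 39 409 and 191. The random block gave 267 and 114. A list count is to be read beside the total of its fit. After centring, 3 of 16 ubiquitin-like genes passed, 2 of 7 exosome genes, 2 of 18 replication genes, 4 of 24 mitosis genes and 1 of 13 chromatin repressors, all of them higher. Spliceosome genes kept 6 higher with 1 lower, and ribosome biogenesis 4. For mitosis the count was 0 without number 40 and 0 without number 37, and for ribosome biogenesis it was 0 without number 49. The exosome and the chromatin repressors also had 0 without number 49. Ubiquitin-like genes numbered 3 without number 40, 3 without number 48 and 2 without number 49, and replication genes 2 without number 39, 3 without number 40 and 1 without number 49. Chromatin repressors numbered 1 without number 40 and 1 without number 48, and exosome genes 1 without number 48. With the number as a random block 2 of 13 chromatin repressors passed, and Ezh2, Suz12 and Hdac2 did not. In the same fit 4 of 18 replication genes, 5 of 24 mitosis genes and 6 of 16 ubiquitin-like genes passed.

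Ribosomal protein genes that passed were mostly lower. Of 43 tested proteins of the cytosolic ribosome 6 fell and 1 rose, with a median difference of -0.01 over the list. Rpl36 fell by 0.21 (SE 0.05, adjusted p = 0.0367), from 11.37, 11.47 and 11.56 in LFD to 11.15, 11.23 and 11.38 in WSD daughters, with 1 WSD pup inside the LFD range. Rps26 (-0.24), Rps27 (-0.22), Rpl29 (-0.21), Rpl10a (-0.18) and Rpl28 (-0.13) fell as well and Rpl3 rose (0.21). After centring 7 fell and 0 rose, and without number 37 the count was 6 higher and 6 lower. Without number 40 there were 2 lower and without number 49 there was 1, beside 82 and 54 lower over all tested genes. Ribosomal proteins have many processed copies in the genome, which may share signal with the listed gene. Of 57 mitochondrial ribosomal proteins 6 rose and 2 fell, and after centring 2 rose and 3 fell.

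**Figure D5:**
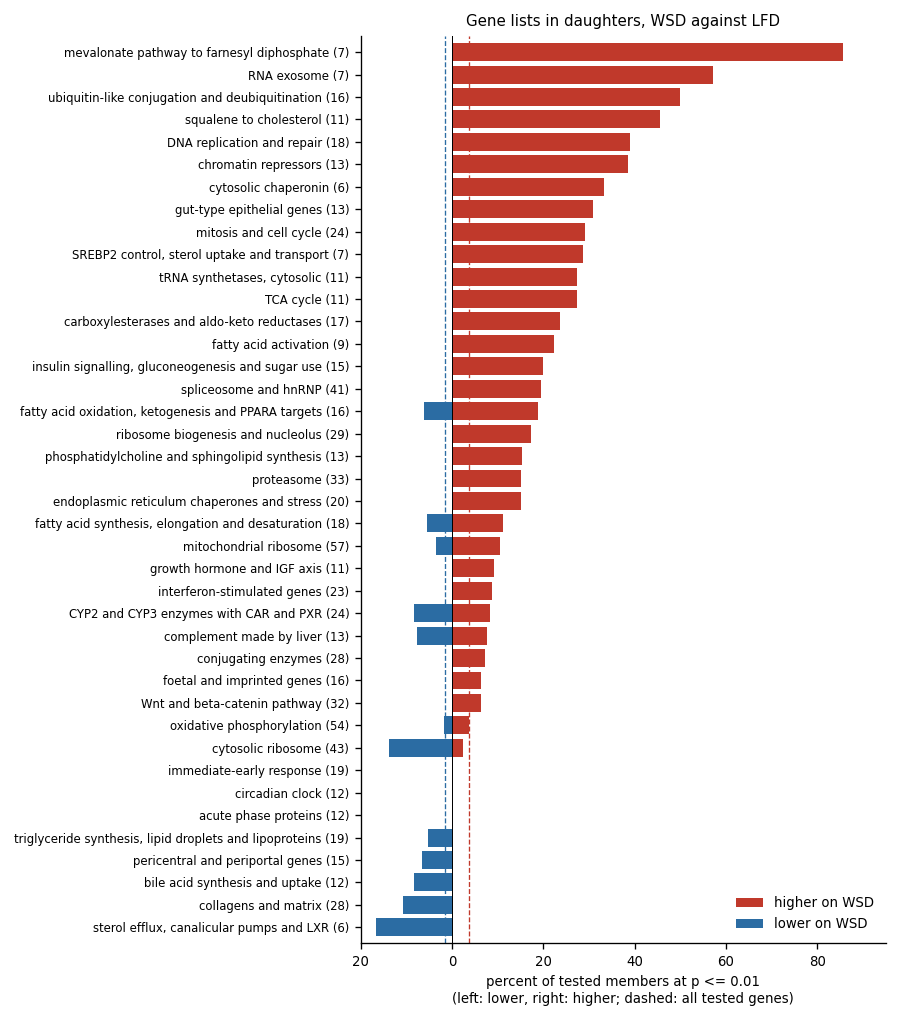
Percent of the tested members of each gene list at p <= 0.01 (x axis; right and red, higher in WSD daughters; left and blue, lower), with the number of tested members in brackets and dashed lines at the share over all genes tested (3.6% and 1.59%). The mevalonate pathway has the highest share, 85.71%, and in the cytosolic ribosome 6 of 43 genes are lower.

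Of 13 complement genes made by liver, C2 fell and Mbl2, the mannose-binding lectin, rose (0.20, adjusted p = 0.15). None of 12 acute phase, 12 circadian clock or 19 immediate-early genes passed with limma at p <= 0.01, and at p <= 0.05 there were 2, 0 and 0. Meg3, an imprinted long non-coding RNA, rose by 0.61 (adjusted p = 0.088) as 1 of 16 foetal and imprinted genes (6.25%, beside 5.19% of all genes). Without number 40 Meg3 differed by 0.36 (adjusted p = 0.422). Igfals, the liver subunit that carries IGF1 in blood, rose by 0.31 (adjusted p = 0.107) as 1 of 11 genes of the growth hormone axis. Of 28 collagen and matrix genes 3 fell, Olfml1, Mxra8 (-0.17) and Adamtsl4 (-0.20). Irf8 (0.24) and Psmb10 (0.21) were the 2 of 23 interferon-stimulated genes that rose (8.7%). Ctnnbip1 (0.16) and Ctnnbl1 (0.23) were the 2 of 32 in the Wnt list (6.25%), where 0 passed after centring.

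Blood cell markers varied between pups of the same diet. The median difference was 0.35 over 11 neutrophil and myeloid markers and 0.30 over 5 B lymphocyte markers, and with limma none passed at p <= 0.01 (3 and 1 at p <= 0.05). Averaged over the neutrophil markers the LFD pups ran from -0.51 to 0.84 around their mean and the WSD pups from -0.28 to 0.67, and the 2 LFD pups of number 50 were the highest of their group (0.84 and 0.49). Without number 50, 7 of 11 neutrophil and 3 of 5 B lymphocyte markers were higher on WSD with limma at p <= 0.01. Over all tested genes, 510 were higher without number 50. That fit also left out the LFD sons of number 50. They read 9.41 and 8.78 for the neutrophil gene Ngp, beside 6.77 to 7.72 in the other LFD sons. Stfa1, a stefin expressed in mouse neutrophils that is not in the marker list, was among the 10 largest rises. It read 3.74, 4.42 and 5.87 in LFD and 4.83, 5.36 and 5.95 in WSD daughters, with the highest LFD value in a pup of number 50, and rose by 0.72 (SE 0.25, adjusted p = 0.172), a call that was lost with the number as a random block. The part of blood cells in the results above was not tested. Of the other marker lists (erythroid, T lymphocyte, Kupffer cell, endothelium, stellate cell, cholangiocyte, pancreas and adipose), 0 tested genes passed with limma at p <= 0.01 and 0 at p <= 0.05.

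The first components of variation among the daughters did not pass a test of diet. In a principal component analysis of the 1000 most variable genes, the first component held 28.7% of the variance and the diets overlapped on it (exact permutation test, two-sided p = 0.263). Pups of number 50 (9.89 and 6.08) and of WSD numbers 40 and 48 were high on it, and 1 WSD pup of number 39 was the lowest of all (-7.94). Its leading genes were Orm1 and Mup3, secreted proteins of liver, and the neutrophil gene Ngp. The second component (21.4%, exact permutation p = 0.157) was led by Thrsp, a lipogenic nuclear protein, with Sqle and Dsg1c, and was highest in the pups of number 40. The third (11.7%) gave an exact permutation p of 0.0312, which became 0.125 after adjustment over the 4 components tested.

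Most of the 561 genes were not called in sons: 52 were at p <= 0.01 there as well, and 454 had p above 0.05 in sons. The share of all tested genes called in sons is not given here, so the 52 cannot be set against it. The difference between daughters and sons itself passed p <= 0.01 for 60 of the 561, and for none at adjusted p < 0.05 (smallest adjusted p = 0.182). It contains the daughters' difference by which the 561 were picked, so passing was favoured in advance. The share over all tested genes is not given beside the 60. Sqle differed by 0.18 in sons against 1.31 in daughters (adjusted p of the difference = 0.434), and Cyp51 by -0.11 against 0.81 (adjusted p = 0.393). Krt20 differed by 1.19 and Steap2 by -0.27 in sons, in the direction seen in daughters. Mustn1 read 7.93 to 8.46 in LFD and 7.81 to 8.11 in WSD sons. For Clec2h the LFD sons read 7.57 to 8.46 and the WSD sons 8.36 to 8.90. Cyp3a44 differed by -0.40 in sons and 0.32 in daughters (adjusted p = 0.182), Abcg8 by 0.27 and -0.24 (adjusted p = 0.315), and C2 by 0.07 and -0.27 (adjusted p = 0.182).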

How the data were processed

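Total liver RNA of 27 pups, 15 of them daughters, was hybridised to 1-colour mouse gene arrays, 1 pup per array. The deposited table holds log2 signals, which the authors obtained with RMA, a method that subtracts background, equalises the distributions of arrays and summarises probes (version not given in the sources used here). It lists 35556 probe sets of the manufacturer, so the regrouping of probes by Entrez gene that the study's methods describe is not in it. Array medians lay between 5.34 and 5.43 and values between 1.51 and 13.58, and all columns were mapped to a sample (0 left over). The number of arrays limits the precision.

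Probe sets were named through the platform annotation, with symbols updated by Entrez identifier: 21218 had 1 gene, 1881 several and 12457 none. Only the first kind was used, and the probe set of highest mean stood for each of 18820 genes (1386 had several). Genes were tested if the signal reached 20 (linear) on 4 arrays and the interquartile range over arrays was at least 0.1, which left 10810. Group means of daughters and sons by diet were fitted over 27 arrays with limma 3.58.1 (R 4.3.3; eBayes with an intensity trend), and WSD minus LFD was taken in daughters. Calls were made at p <= 0.01, as in the study's methods, with Benjamini-Hochberg adjusted p beside them. Scripts were tested on simulated data in which pups were independent. Error rates with pups of a number alike were therefore not tested.

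Genes were named from the 10 largest rises and falls, the 12 smallest p, up to 5 called genes per list, all sterol synthesis genes, genes of the study's PCR, and markers. Members and lists were chosen with earlier results of these data known. Promoters came from RefSeq (GRCm38.p6). Components were tested by an exact permutation test. Alternatives covered scaling, filters, probe set choice, blocks, and leaving out pups or numbers. Figures used Python 3.11.15 and matplotlib 3.10.9.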

Additional observations from a re-analysis of the deposited data

Results flagged for a closer look

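In 5 of 266 groups checked (133 genes in both diets) 1 pup stood far from the rest of its group, which is 1.88%. The nominal rate of the check is about 1 in 20 groups. These genes were picked for their difference between diets and share the same pups, so the 2 rates cannot be compared. The same LFD daughter (number 49) was lowest of its group for Atp5c1, a subunit of ATP synthase (log2 signal 10.11), for Cops5 (7.34) and for Parp1 (7.58). A WSD daughter of number 39 was low for Pnpla2 (8.26), and a WSD daughter of number 40 was low for Rpl3 (11.21).

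Among 8607 probe sets that the annotation pairs with several genes or with none, 258 passed limma at p <= 0.01 between the diets (170 higher and 88 lower, 3%), and 0 at adjusted p < 0.05. Of these probe sets, 60 belonged to the 940 with several genes (6.38%) and 198 to the 7667 with none (2.58%). They are not used elsewhere here and are not named.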

How the results depend on the processing

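Over the alternatives, the 133 called genes followed kept their direction in all 5050 values, of which 3961 passed p <= 0.01 and 1089 did not. These genes were picked from the 561 called on the same arrays, so a kept direction was likely in advance. The share that passed is not that of all 561. The 7 sterol synthesis genes not called turned direction in 7 of 266 values (Ebp, Ggps1 and Tm7sf2) and passed in 16. Against 389 genes higher and 172 lower at p <= 0.01, the counts were 190 and 314 after centring, 264 and 269 after repeated quantile normalization, 145 and 54 on arrays of prefix G073 alone, 117 and 91 on prefix G074 alone, 267 and 114 with the number as a random block, 121 and 54 with arrays of a number averaged, 244 and 82 without number 40, and 115 and 54 without number 49. Against 33 genes at adjusted p < 0.05, limma gave 16 with daughters fitted alone, 103 with array weights, 2 on prefix G073, 0 on prefix G074, 9 with the random block, 0 after averaging, 188 without number 37, 69 without number 39, 2 without number 40, 0 without number 49 and 160 without number 50. For the 3 settings with 0 the counts at p <= 0.01 stand above. Leaving out 1 pup gave 276 to 460 higher, 89 to 184 lower and 4 to 53 at adjusted p < 0.05; the lowest of the last came without WSD replicate 3 (number 40) and the highest without LFD replicate 3 (number 37). With 2000 genes the third component differed by 5.376 between diets (exact permutation p = 0.01039, adjusted 0.04156). The cause of these shifts was not tested; fits on 1 prefix or without a number use fewer arrays. The number of arrays, 2 per number in WSD daughters, sets the precision.

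With the replicate number of the titles as a block there were 388 genes higher, 178 lower and 23 at adjusted p < 0.05. This replicate number is not the number in the array name. For LFD and WSD daughters that share a replicate number, deviations from the group means correlated over genes at -0.22 to 0.26. Pairing by replicate number was not tested.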
